A study of Mus musculus with 12 samples.

Results

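The genes described here are the variable (V) segments of the T cell receptor loci that the array annotation named. Members were all probe sets whose every annotated gene symbol began with a receptor segment prefix (Trav, Traj or Trac for the alpha chain, Trbv, Trbj or Trbc for beta, Trgv or Trgc for gamma, Trdv or Trdc for delta). The rule found 21 of the 41345 probe sets. All 21 carried 1 symbol, and together they named 8 segments, all of them V segments: 5 of the alpha locus (18 probe sets), 1 of the beta locus (1 probe set) and 2 of the gamma locus (2 probe sets). A further probe set paired Trav3n-3 with a gene outside the rule and was left out. The RefSeq gene table of GRCm38.p6 lists 260 segments with these prefixes, so the array annotation named 8 of 260. Joining, constant and delta segments were not analysed here. Among the alpha members, 2 Trav12-2 probe sets (17299926 and 17299934) held the same values on all 12 arrays as 2 other Trav12-2 probe sets (17299849 and 17299857). Each pair was counted once, which left 19 distinct rows of values, 16 of them alpha.

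A T cell makes its receptor by joining 1 V segment to a joining segment, and in the beta and delta loci also a diversity segment, and the joined exon is spliced to a constant region. The chosen segment fixes much of the surface that meets peptide and MHC, and a clone passes its choice on to its daughters. In RNA from many cells, the signal of a V segment therefore follows how many cells use it and how much receptor RNA each holds, and these cannot be told apart in a bulk sample. Most regulatory T cells (Treg) carry an alpha-beta receptor, while gamma segments mark the separate gamma-delta lineage.

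The cells were splenic Treg from DEREG mice, in which a transgene driven by Foxp3 regulatory sequence marks Foxp3+ cells with green fluorescence and makes them sensitive to diphtheria toxin (DTx). All animals had been sensitized to and challenged with ovalbumin (OVA), a model of allergic airways disease. The eTreg group received human serum albumin (HSA, 2 g/kg) and no DTx. The e_iTreg group received intravenous immunoglobulin (IVIg, pooled human IgG, 2 g/kg) and no DTx, and the iTreg group received DTx (40 ng/g) to deplete endogenous Treg and then IVIg (2 g/kg). This grouping follows the series design. The growth protocol, which is worded identically for every sample, puts DTx before both HSA and IVIg. No group given DTx with HSA was analysed here, so depletion and IVIg changed together between eTreg and iTreg. Each group had 4 arrays, described as biological replicates, whose number limits the precision. The sources used here gave no ages, sorting gates or detail of pooling.

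The labelled cell type was checked first. Foxp3, the lineage factor of Treg, lay between 11.84 and 12.56 on the log2 scale over the 12 arrays, and the coreceptor gene Cd4 between 10.33 and 10.57. Neither passed the test in any comparison. The CD8 coreceptor genes were measured too, Cd8a at 5.58 to 7.05 and Cd8b1 at 8.47 to 9.40, and neither of these passed. The mean of 11 B cell markers ran from 6.20 to 8.11 in eTreg, from 6.16 to 8.01 in e_iTreg and from 7.20 to 7.60 in iTreg. The 3 lowest arrays were eTreg replicates 3 and 4 and e_iTreg replicate 4. The mean of 7 plasma cell markers reached 9.35 in iTreg replicate 4, and lay between 7.09 and 8.13 elsewhere. Some markers of other cells were higher in iTreg in both comparisons. Of 12 CD8 T and NK cell markers these were Nkg7 (3.60-fold over eTreg, adjusted p = 0.000184) and Gzmk (1.49-fold, adjusted p = 0.00331). Of 14 monocyte, macrophage and dendritic cell markers they were Itgam (3.21-fold, adjusted p = 0.00262) and Cst3 (1.48-fold, adjusted p = 0.0108), and of the plasma cell markers Prdm1 (2.05-fold, adjusted p = 0.00380), which effector Treg also express. Siglech, another of the 14, was lower in iTreg relative to e_iTreg (-0.45 ± 0.12, adjusted p = 0.0300). Relative to eTreg it did not pass (-0.18 ± 0.12, adjusted p = 0.469). The part of these other cells in the iTreg differences given here was not tested. On e_iTreg replicate 3, 68% of all rows tested lay above their group mean.

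Trbv13-2 was the member that passed the test, and it did so in 1 of the 3 comparisons. This beta segment, known as V beta 8.2 in the older naming, is used by many conventional T cells and is also a main partner of the invariant alpha chain of natural killer T (NKT) cells. Its log2 values were 10.63, 10.41, 10.35 and 10.38 in eTreg replicates 1 to 4. They were 10.46, 10.48, 10.66 and 10.57 in e_iTreg, and 10.16, 10.35, 10.05 and 10.05 in iTreg. The 4 iTreg arrays were the 4 lowest, although iTreg replicate 2 (10.350) and eTreg replicate 3 (10.354) were almost equal.

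Trbv13-2 fell by 0.39 ± 0.10 on the log2 scale (SE, n = 4 per group, 0.763-fold) in iTreg relative to e_iTreg, with a 95% interval of -0.60 to -0.17 and adjusted p = 0.0224 (limma, Benjamini-Hochberg over 25335 rows). In that comparison 11.2% of all rows tested passed, 6.48% as higher and 4.70% as lower, so 1 of 19 distinct member rows was a share near or below the background. The 2 groups did not overlap for Trbv13-2. Among all rows, 8.97% lay lower without overlap and 7.62% higher. Relative to eTreg the difference of Trbv13-2 was -0.29 ± 0.10 (interval -0.51 to -0.08), and it did not pass (adjusted p = 0.0880), with groups that did not overlap (7.85% of all rows lay lower without overlap and 6.96% higher). Between e_iTreg and eTreg it differed by 0.10 ± 0.10 (interval -0.12 to 0.31, adjusted p = 0.812). The 2 comparisons with iTreg share the iTreg arrays.

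The call lay near the threshold and did not hold in every omission of 1 array. An omission also leaves fewer arrays, and fewer rows then passed in general. Without iTreg replicate 1 the calls over all rows fell from 2832 to 1859, while the Trbv13-2 difference stayed at -0.39. Leaving out e_iTreg replicate 3 or 4, or iTreg replicate 1, 3 or 4, ended it (adjusted p = 0.0610, 0.0589, 0.0514, 0.0649 and 0.0631), while the difference stayed between -0.46 and -0.35 over all 12 omissions. Centring each array on its median gave -0.30 with adjusted p = 0.0557, and leaving out eTreg replicates 3 and 4 and e_iTreg replicate 4, where B cell markers were lowest, gave -0.38 with adjusted p = 0.0828.

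NKT markers were measured beside it. The mean of the 5 listed NKT markers was 8.22 to 8.38 in iTreg, against 8.41 to 8.57 in eTreg and 8.43 to 8.54 in e_iTreg. Of the 5, only Cd160, a receptor of NK and memory-type T cells, passed in iTreg minus e_iTreg (-0.35 ± 0.10, adjusted p = 0.0341). Zbtb16, which encodes PLZF, the defining factor of NKT cells, differed by -0.24 ± 0.13 (adjusted p = 0.254) and Slamf1 by -0.34 ± 0.12 (adjusted p = 0.0950). Klrb1c, which encodes NK1.1, lay below log2 6 in every array (5.13 to 5.97) and differed by 0.01 ± 0.15. Il2rb, a receptor chain for interleukins that Treg also express, differed by 0.11 ± 0.11 in the direction opposite to Trbv13-2 (adjusted p = 0.561). The part of these cells in the Trbv13-2 difference was not tested.

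**Figure D1:**
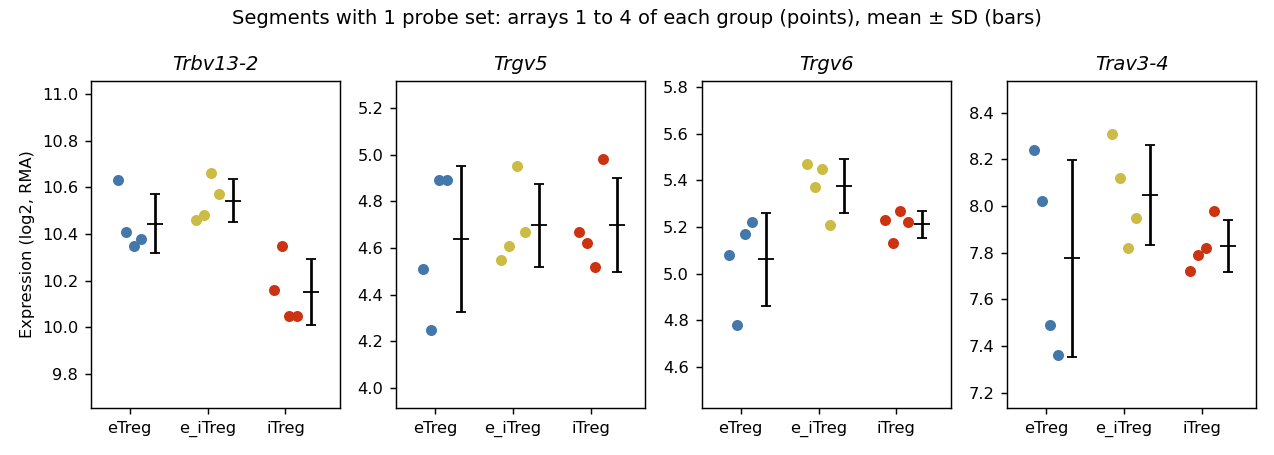
Log2 expression (vertical axis) of the 4 segments with 1 probe set each, with 1 point per array, arranged by group, and the group mean ± SD as a bar. The vertical axes cover equal spans. The iTreg points of Trbv13-2 (10.05 to 10.35) are the lowest 4, while the groups of Trgv5, Trgv6 and Trav3-4 overlap.

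The gamma segments were dim. Trgv5 encodes the V gamma chain of dendritic epidermal T cells of the skin, and Trgv6 that of a mucosal and tissue-resident gamma-delta population. Trgv5 lay between 4.25 and 4.98 and Trgv6 between 4.78 and 5.47 in the 12 arrays, under the log2 6 level used as the dim filter. The files give no detection call, so whether these signals exceed background is not known.

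Trgv6 read 5.08, 4.78, 5.17 and 5.22 in eTreg, 5.47, 5.37, 5.45 and 5.21 in e_iTreg, and 5.23, 5.13, 5.27 and 5.22 in iTreg. Replicates 1 to 3 of e_iTreg were above all other arrays, and replicate 4 lay within the range of eTreg. In e_iTreg minus eTreg no member had groups without overlap (2.56% of all rows did so as higher and 1.66% as lower). The difference of Trgv6 there was 0.31 ± 0.11 (interval 0.09 to 0.54), with an unadjusted limma p of 0.0104 and adjusted p = 0.705. Trgv5 differed by 0.06 ± 0.15 in e_iTreg minus eTreg and by 0.06 ± 0.15 in iTreg minus eTreg (adjusted p = 0.931 and 0.894). Of 12 further gamma-delta markers listed, 6 were measured, and none of these passed in any comparison (smallest adjusted p = 0.254). That value is from Zbtb16 in iTreg minus e_iTreg, a gene that is also among the NKT markers above. The mean of the 6 ran from 6.15 to 6.49 in eTreg, 6.23 to 6.57 in e_iTreg and 6.14 to 6.44 in iTreg. Il17a, the cytokine of one gamma-delta subset, lay between 5.35 and 5.90.

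None of the 16 alpha rows passed in any comparison. The background was 0% of all rows in e_iTreg minus eTreg and 10.0% in iTreg minus eTreg (5.38% higher, 4.63% lower), beside 11.2% in iTreg minus e_iTreg. At an unadjusted p under 0.05, 0 of the 16 alpha rows were called in any comparison (their smallest unadjusted p was 0.110), against 6.95%, 21.7% and 26.3% of all rows in the same order. No other tool than limma was run. Between e_iTreg and eTreg the median alpha difference was 0.05 log2 units, against 0.03 over all rows. For iTreg it was 0.04 relative to eTreg and -0.02 relative to e_iTreg, against -0.01 and -0.07 over all rows. Over all 19 distinct member rows, 15 differences were above 0 in e_iTreg minus eTreg (59.0% of all rows). For iTreg 12 were above 0 relative to eTreg (46.8%) and 7 relative to e_iTreg (36.8%). Median centring turned the majority in both comparisons with e_iTreg, to 8 of 19 above 0 in e_iTreg minus eTreg and 13 of 19 in iTreg minus e_iTreg, and left 12 of 19 in iTreg minus eTreg. The 95% interval lay within a 1.5-fold change either way for 12, 14 and 13 of the 16 alpha rows. For the others the interval did not exclude a change of that size.

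**Figure D2:**
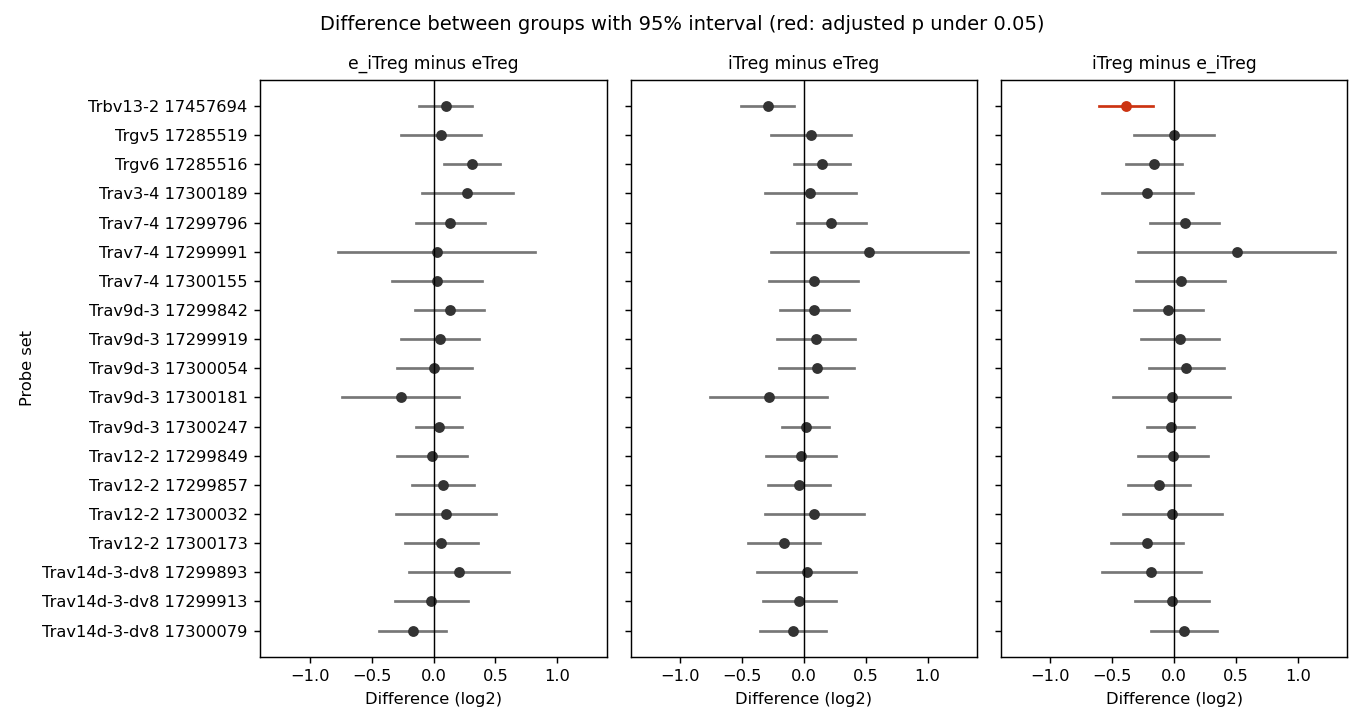
Log2 difference (horizontal axis) of the 19 distinct probe sets in the 3 comparisons, as points with 95% intervals, named by segment and probe set. Red marks adjusted p under 0.05, which only Trbv13-2 in iTreg minus e_iTreg reached, at -0.39. The widest intervals belong to Trav7-4 probe set 17299991.

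Trav12-2 had the most probe sets, 6 with 4 distinct rows. In iTreg minus e_iTreg all 4 rows had differences below 0, from -0.22 to -0.01. All 4 stayed below 0 after quantile normalization, but 2 of the 4 were above 0 after median centring. Probe set 17300173 read 11.46, 11.18, 10.95 and 11.33 in eTreg, 11.41, 11.50, 11.36 and 10.90 in e_iTreg and 11.12, 11.06, 11.16 and 10.95 in iTreg. The iTreg values overlapped those of both other groups, and the difference of -0.22 ± 0.14 from e_iTreg had adjusted p = 0.319. Probe set 17300032 was at 10.83 in iTreg replicate 2 and at 9.88 to 10.05 in the other 3 iTreg arrays. The same array was also the highest of its group for probe sets 17299849 (10.07 against 9.64 to 9.74) and 17299857 (9.81 against 9.57 to 9.60). In 17300173 it was not, at 11.06.

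Trav9d-3 had 5 distinct rows, of which 4 were above 0 and 1 below in iTreg minus eTreg, also after median centring and after quantile normalization. In e_iTreg minus eTreg the split was the same, also after quantile normalization, but after median centring only 1 was above 0. The row that went the other way was probe set 17300181, at 10.68, 10.14, 9.83 and 10.27 in eTreg, 10.41, 10.32, 9.23 and 9.91 in e_iTreg and 10.03, 9.79, 10.00 and 9.97 in iTreg. Its iTreg arrays were close together and lay inside the range of e_iTreg, and replicate 2 was just below the lowest eTreg array. Its differences were -0.26 ± 0.22 in e_iTreg minus eTreg and -0.29 ± 0.22 in iTreg minus eTreg (adjusted p = 0.772 and 0.541). Probe set 17300247 had the smallest spread of all members, with values of 13.54 to 13.80 over the 12 arrays and differences of at most 0.04 ± 0.09. Probe sets of 1 symbol can therefore differ in level and in spread, and which segments each of them detects was not given in the sources used here. Alpha V segments occur in near-identical duplicated copies in the mouse, so the assignment of a probe set to 1 copy is uncertain.

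Trav7-4 had 3 probe sets, all with differences above 0 in iTreg minus eTreg, also after median centring and quantile normalization. In the other comparisons 2 of 3 were below 0 after median centring (e_iTreg minus eTreg) and 1 of 3 after quantile normalization (iTreg minus e_iTreg). In iTreg minus eTreg the differences were 0.22 ± 0.13 for 17299796, 0.53 ± 0.37 for 17299991 and 0.08 ± 0.17 for 17300155, with adjusted p = 0.372, 0.484 and 0.869. Probe set 17299991 varied most between replicates of all members, with a pooled SD of 0.66. It read 8.77, 8.48, 8.31 and 7.91 in eTreg, 8.99, 9.16, 6.96 and 8.46 in e_iTreg and 9.17, 8.85, 9.24 and 8.33 in iTreg. The value of 6.96 in e_iTreg replicate 3 lay under the other 3 arrays of its group (8.46 to 9.16), though it was not among the outlying arrays flagged below. With that array the difference of iTreg minus e_iTreg was 0.50 ± 0.37, and without it 0.03. The difference of e_iTreg minus eTreg was 0.02 with that array and 0.50 without it.

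Trav14d-3-dv8, a segment that can join to alpha or delta joining segments, had 3 probe sets. Probe set 17299893 read 8.80, 8.47, 8.45 and 7.91 in eTreg, 8.81, 9.0, 8.13 and 8.52 in e_iTreg and 8.31, 8.58, 8.48 and 8.35 in iTreg, so that the groups overlapped throughout. In e_iTreg minus eTreg its difference was 0.21 ± 0.19, while 17300079 was at -0.17 ± 0.13 and 17299913 at -0.02 ± 0.14 (adjusted p = 0.786, 0.747 and 0.980). Trav3-4, with 1 probe set, read 8.24, 8.02, 7.49 and 7.36 in eTreg, 8.31, 8.12, 7.82 and 7.95 in e_iTreg and 7.72, 7.79, 7.82 and 7.98 in iTreg. Here eTreg split into a higher and a lower pair of arrays, and the difference of e_iTreg from eTreg was 0.27 ± 0.17. That of iTreg was 0.05 ± 0.17 from eTreg and -0.22 ± 0.17 from e_iTreg (adjusted p = 0.731, 0.923 and 0.440 in that order).

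The alpha segments moved together from array to array within the eTreg and e_iTreg groups. In eTreg replicate 1 all 16 alpha rows were above their group mean (45.4% of all rows tested), and in e_iTreg replicates 1 and 2 it was 15 and 16 of 16 (41.9% and 40.8%). In eTreg replicate 2 it was 9 of 16 (47.1%). In eTreg replicates 3 and 4 only 1 and 3 of 16 were above it (52% and 54.7% of all rows), and in e_iTreg replicates 3 and 4, 3 and 2 of 16 (68% and 41.8%). In iTreg replicates 1 to 4 the counts were 7, 10, 9 and 5 of 16 (51.3%, 53.6%, 48.6% and 45.8% of all rows). The alpha rows overlap in sequence and share each library, so they are not independent of each other.

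Markers of other cells and of dividing cells differed between the same arrays. B cell marker means were 8.11 in eTreg replicate 1 and 7.73 and 8.01 in e_iTreg replicates 1 and 2. They were 6.20 and 6.26 in eTreg replicates 3 and 4 and 7.44 and 6.16 in e_iTreg replicates 3 and 4. In eTreg replicate 2, with its middle alpha count, the B cell mean was 7.84, above that of e_iTreg replicate 1, and the cell cycle mean was 7.66. The means of 11 cell cycle genes were 8.79, 8.24 and 8.86 in the 3 arrays with high alpha counts and 7.50, 6.78, 7.19 and 6.91 in the 4 with low counts. The mean of Cd3d, Cd3e and Cd3g, which encode receptor chains common to all T cells, did not separate those arrays (12.13 to 12.28 in the 3, 12.07 to 12.31 in the 4). The part of any of these in the array pattern was not tested. In iTreg the cell cycle mean was 9.46 to 10.24, above every array of the other groups. The alpha counts are taken within each group and do not compare groups.

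**Figure D3:**
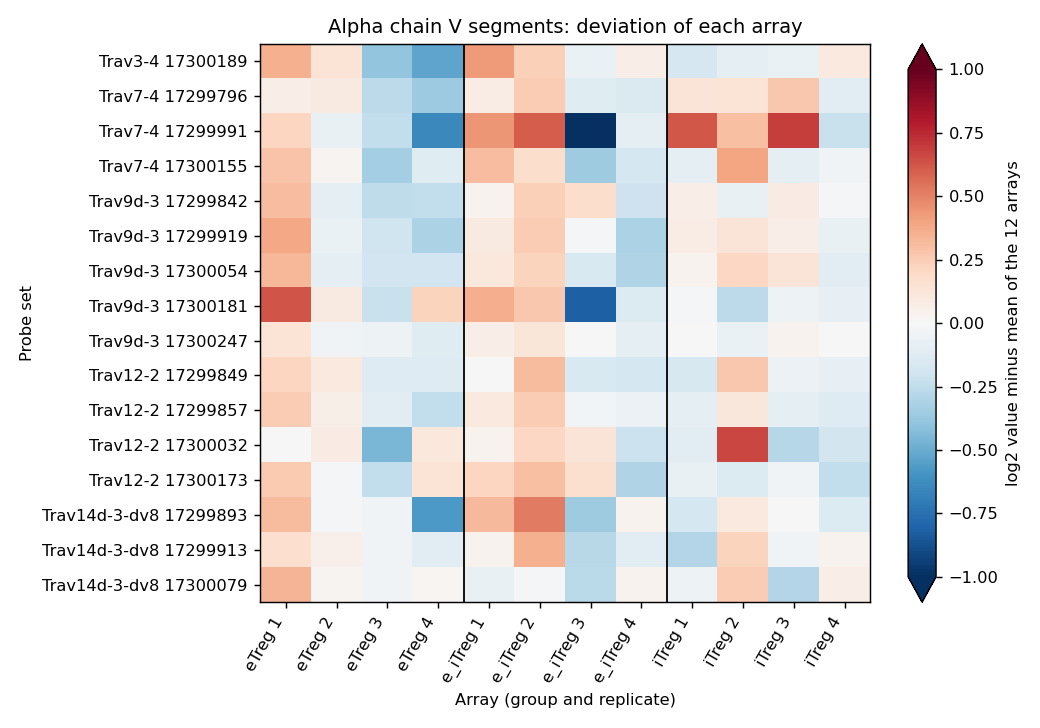
Each of the 16 distinct alpha probe sets (rows) in each array (columns), coloured by its log2 value minus its mean over the 12 arrays, with lines between the groups. The columns of eTreg replicate 1 and of e_iTreg replicates 1 and 2 are mostly red (above the mean). Those of eTreg replicates 3 and 4, of e_iTreg replicates 3 and 4 and, more faintly, of iTreg replicate 4 are mostly blue. The colour scale ends at -1 and 1, and Trav7-4 probe set 17299991 in e_iTreg replicate 3 lies beyond it.

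The spread of the alpha rows between replicates is described here by group. The median SD of the 16 alpha rows was 0.26 in eTreg, 0.23 in e_iTreg and 0.13 in iTreg, where all rows tested had medians of 0.14, 0.16 and 0.16. In 11 of 16 alpha rows (68.8%, against 43.3% of all rows) the SD was smaller in iTreg than in eTreg, and in 14 of 16 (87.5%, against 50% of all rows) smaller than in e_iTreg. Exceptions included Trav12-2 probe set 17300032 (SD 0.43 in iTreg, 0.26 in eTreg) and Trav7-4 probe set 17299991 (0.41 in iTreg, 0.36 in eTreg). Leaving out eTreg replicate 1 lowered the eTreg median to 0.17, and leaving out another eTreg array gave 0.24 to 0.30. For iTreg the medians without 1 array were 0.09 to 0.15, the lowest without replicate 2. The B cell marker mean also ranged less in iTreg (7.20 to 7.60) than in eTreg (6.20 to 8.11) and e_iTreg (6.16 to 8.01). So did the cell cycle mean (9.46 to 10.24, against 6.78 to 8.79 and 6.91 to 8.86). The means of plasma cell markers and of monocyte, macrophage and dendritic cell markers ranged more in iTreg. Outside the alpha locus the order of the groups varied. The SD of Trbv13-2 was largest in iTreg (0.14, against 0.13 in eTreg and 0.09 in e_iTreg). That of Trgv5 was 0.20 in iTreg, 0.31 in eTreg and 0.18 in e_iTreg, and that of Trgv6 was smallest in iTreg (0.06). The difference in spread between groups was not tested. Counted over all 19 distinct rows and 3 groups, 1 array stood far from the other 3 by Dixon's criterion in 3 of 57 groups of 4 (5.26%), against 5.58% over all rows tested.

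**Figure D4:**
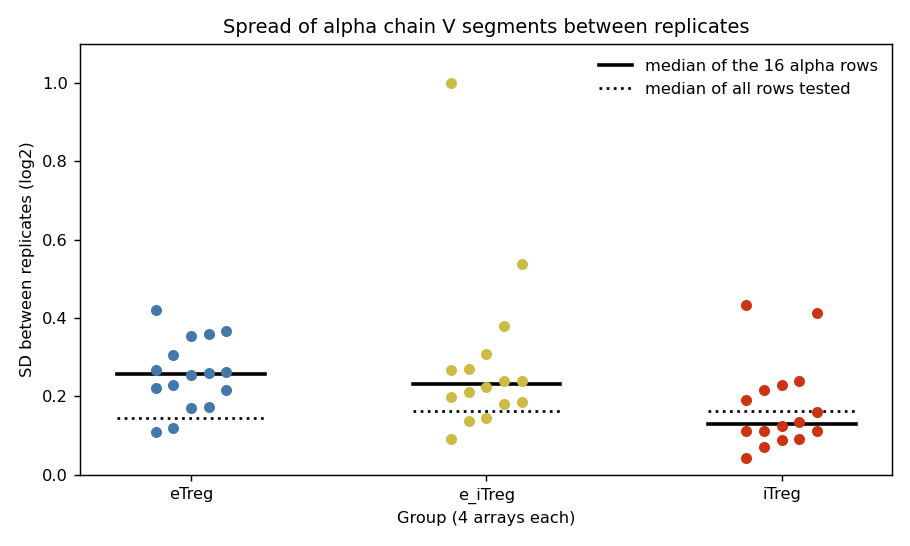
SD of log2 values between the 4 replicates (vertical axis) for each of the 16 distinct alpha probe sets, by group. Solid lines mark their median (0.26, 0.23 and 0.13) and dotted lines the median of all rows tested (0.14, 0.16 and 0.16), and the highest point is Trav7-4 probe set 17299991 in e_iTreg.

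The other genes of the receptor pathway were taken from lists of receptor chains, coreceptors, signalling proteins and recombination factors, with 43 of 49 listed genes measured by a probe set of that 1 symbol. In e_iTreg minus eTreg none passed, as for all rows tested. In iTreg minus eTreg 1 of 43 was higher and 2 lower, and in iTreg minus e_iTreg 2 were higher and 3 lower, with medians over the 43 of -0.01 in both. These shares were 6.98% and 11.6% of the 43, against 10.0% and 11.2% of all rows. The 3 CD3 chains and the 3 coreceptor genes had no member past the threshold in any comparison, and Cd3e differed by 0.07 ± 0.10 in iTreg minus eTreg (12.20 ± 0.09 in iTreg and 12.13 ± 0.12 in eTreg, mean ± SD, n = 4).

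Of 13 adaptors and effectors, Themis, an adaptor best known from thymic selection, rose in iTreg. It read 7.76, 7.82, 7.82 and 8.07 in eTreg, 7.75, 7.85, 7.58 and 7.61 in e_iTreg and 8.62, 8.11, 8.59 and 8.60 in iTreg, with no overlap between iTreg and the other groups. The rise was 0.62 ± 0.12 over eTreg and 0.78 ± 0.12 over e_iTreg (adjusted p = 0.00570 and 0.00159). Fyb and Skap1, partners in the adhesion arm of receptor signalling, fell relative to e_iTreg by 0.34 ± 0.10 and 0.28 ± 0.09 (adjusted p = 0.0472 and 0.0459), and were at -0.32 and -0.26 relative to eTreg without passing (adjusted p = 0.0754 and 0.0734).

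Of 11 brakes on receptor signalling, the ubiquitin ligase gene Cblb fell in iTreg against both groups, by 0.44 ± 0.10 and 0.54 ± 0.10 (adjusted p = 0.0144 against eTreg and 0.00487 against e_iTreg). Its iTreg arrays read 10.69, 10.67, 10.68 and 10.76, below every eTreg array (11.03 to 11.38) and every e_iTreg array (11.06 to 11.43). Ubash3a, a phosphatase-like suppressor of receptor signalling, fell by 0.44 ± 0.12 relative to eTreg (adjusted p = 0.0249). Relative to e_iTreg it was at -0.13 ± 0.12 and did not pass (adjusted p = 0.506), and the groups overlapped. The adaptor Sla2, which lowers receptor levels, rose by 0.42 ± 0.12 relative to e_iTreg (adjusted p = 0.0391), although those groups overlapped. Its difference of 0.37 ± 0.12 from eTreg did not pass (adjusted p = 0.0713). None of the 8 measured proximal kinases and phosphatases and none of the 5 measured assembly and recombination factors passed in any comparison (smallest adjusted p = 0.209 and 0.164).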

How the data were processed

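The deposited values were log2 expression per probe set, which the authors made with oligo and RMA (background correction, normalization between arrays, summary of probes), per the submitters' processing notes. For versions, settings and the genome build: not given in the sources used here. RNA (2 ng a sample) was amplified before hybridisation, per the labels. Probe sets were named from GEO's platform annotation (23521 with 1 gene symbol, 1814 with several, 16010 with none), and all 8 segment names matched RefSeq by gene number. One linear model over the 3 groups was fitted with limma 3.58.1 in R 4.3.3 to the 25335 rows with a symbol (9 residual degrees of freedom), with two-sided tests, Benjamini-Hochberg adjustment over those rows and a threshold of 0.05. For other genes the brightest probe set was taken. The fit was also run on simulated data with independent noise in every row, whereas the alpha rows here moved together. Its outcome is not used here. Where samples share a source, p-values reflect technical spread only.

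The members and lists were chosen with earlier results of these data known. Members were named where they passed or, where fewer than 5 passed in a comparison, were among the 4 smallest p-values in each direction, where they had 1 of the 8 largest pooled within-group SDs, or for Trbv13-2 as an NKT segment. Probe sets 17299857, 17300247 and 17299849 were also described after their values were seen, as were Il17a, the NKT markers and the markers of other cells. For pathway lists up to 3 genes past the threshold were named in each comparison. The alternatives were other normalizations, filters on dim rows, other sets of rows, other error models, array weights, the compared groups alone, a replicate block, a fold filter and omission of each array.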

Additional observations from a re-analysis of the deposited data

Results flagged for a closer look

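In 3 groups of 4 arrays, 1 array lay far from the other 3 by Dixon's 95% criterion, which chance alone meets in about 1 in 20 groups. Trav14d-3-dv8 probe set 17300079, which lay around the dim level, was at 6.42 in eTreg replicate 1, against 6.05 to 6.11 in the other eTreg arrays. Trav12-2 probe set 17299857 was at 9.81 in iTreg replicate 2, against 9.57 to 9.60. Trav7-4 probe set 17300155 was at 9.56 in the same array, against 9.07 to 9.13.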

How the results depend on the processing

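Over 25 alternatives per comparison, no member passed in e_iTreg minus eTreg. In iTreg minus e_iTreg the count of 1 (Trbv13-2) held in 17 of 25 and was 0 with median centring, with a 1.5-fold filter and without the 3 arrays of lowest B cell marker mean (an alternative chosen after seeing the data, like B cell markers as a covariate). Omission of single arrays gave 0 to 1. In iTreg minus eTreg the count was 1 in place of 0, again Trbv13-2, after quantile normalization (adjusted p = 0.0479), with rows above the median level (0.0446), with array weights (0.0390) and without iTreg replicate 2 (0.0368), and 0 to 1 over the omissions. Trbv13-2 kept its direction in both comparisons with iTreg in all 25, with adjusted p from 0.00989 to 0.0828 against e_iTreg and 0.0368 to 0.223 against eTreg. Differences that changed sign all belonged to members not past the threshold. The median within-group SD of the 19 rows was 0.21 and 0.19 to 0.22 over 16 alternatives.

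With the replicate number as a block the counts were 0, 0 and 1, and Trbv13-2 had adjusted p = 0.0440 against e_iTreg. Same-numbered arrays had correlated deviations of -0.14 to 0.24, so the numbers were not taken as pairs. Over all rows, calls in iTreg minus eTreg numbered 2536, 1188 with the fold filter, 1675 and 1614 without eTreg replicates 2 and 3, and 423 without the 3 arrays. In iTreg minus e_iTreg they numbered 2832, 1211 with the fold filter, 1875, 1878 and 1727 without e_iTreg replicates 1, 3 and 4, 1859 without iTreg replicate 1 and 1455 without the 3 arrays. Of those calls 1641 of 2832 were higher, and 2194 of 2765 after median centring. The causes were not tested.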
